A study of Rattus norvegicus with 24 samples.

Results

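A list of 38 genes of the cell cycle and of DNA replication was followed in peri-implant bone of rat tibia, and 35 of the 38 could be measured. The members were given by name, and a probe set of the array stood for a member where the platform's annotation gave it that single symbol. A gene with more than 1 such probe set is represented by that with the brightest mean signal. Birc5, Cenpe and Rrm1 had no probe set with a single symbol and were not analysed here. The 35 are among 18166 named genes and 36495 probe sets tested, and the mean signal of each of the 35 exceeded the overall median.

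Male Sprague Dawley rats carried plug-shaped implants of poly(lactide-co-glycolide), PLGA, in the tibia, and bone around an implant was taken with a trephine 7 or 28 days after surgery. The Li+ implants held lithium carbonate. The Ctrl implants were PLGA without Li+, and the study's methods describe sodium carbonate in them. Each of 12 rats gave 1 array from a Ctrl site and 1 from a Li+ site, so there were 4 groups of 6 arrays, with rats 4, 5, 7, 10, 11 and 15 at day 7 and rats 21, 23, 27, 28, 29 and 30 at day 28. All animals had surgery and every site had an implant, so no group is untouched bone, and each Ctrl site lies in an animal that also carried a Li+ implant. Total RNA of each site was hybridized to an Affymetrix Rat Gene 2.0 ST array, and the values are log2 signals that the authors normalized with RMA. A log2 difference of 1 is a fold of 2. Bone is a mixed tissue, and fewer cells of a type and less RNA per cell cannot be told apart in these samples.

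Before a cell copies its genome, the origins of replication are licensed by loading the MCM helicase, and cyclin E with Cdk2 then starts S phase. Transcription factors of the E2F family drive the genes of that step, while B-Myb, the MuvB complex and Foxm1 drive the genes of G2 and mitosis. Most such transcripts are made only in cells that divide, and in long bones these are largely precursors of blood cells in the marrow together with progenitors of osteoblasts and cartilage in healing tissue. The markers of osteoblasts, the cells that make bone, all had mean signals above the overall median, among them Sparc at a mean log2 signal of 13.52, Col1a1 at 13.42 and Bglap, osteocalcin, at 11.95.

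The promoters of genes that act in G2 and mitosis often carry a CCAAT box and a CHR element, and those of S phase genes an E2F site. A window of 300 bases, 250 before and 50 after the start of the gene, was at hand for 28 of the 38 members in RefSeq's annotation of the rat assembly GRCr8. The windows below belong to the 4 members with the largest difference between the days among those. Capitals mark the letters CCAAT, which read ATTGG where the box is on the other strand. They also mark the CHR letters TTTGAA, or TTCAAA where the element is on the other strand. Cdc6, whose difference was larger, had no window there.
Kif11, chr1:244536617-244536916, plus strand: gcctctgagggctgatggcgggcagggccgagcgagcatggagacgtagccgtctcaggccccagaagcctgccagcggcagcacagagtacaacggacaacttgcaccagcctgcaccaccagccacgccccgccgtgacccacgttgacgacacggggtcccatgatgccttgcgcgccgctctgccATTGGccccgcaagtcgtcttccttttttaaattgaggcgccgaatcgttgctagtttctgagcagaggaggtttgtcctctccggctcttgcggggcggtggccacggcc
Cenpf, chr13:103760837-103761136, minus strand: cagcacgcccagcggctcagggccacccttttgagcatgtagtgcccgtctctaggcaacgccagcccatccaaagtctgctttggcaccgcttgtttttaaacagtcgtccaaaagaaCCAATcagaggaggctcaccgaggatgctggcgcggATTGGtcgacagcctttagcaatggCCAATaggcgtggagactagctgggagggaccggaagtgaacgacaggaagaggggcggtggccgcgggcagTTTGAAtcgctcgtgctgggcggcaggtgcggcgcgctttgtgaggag
Kif23, chr8:71320535-71320834, minus strand: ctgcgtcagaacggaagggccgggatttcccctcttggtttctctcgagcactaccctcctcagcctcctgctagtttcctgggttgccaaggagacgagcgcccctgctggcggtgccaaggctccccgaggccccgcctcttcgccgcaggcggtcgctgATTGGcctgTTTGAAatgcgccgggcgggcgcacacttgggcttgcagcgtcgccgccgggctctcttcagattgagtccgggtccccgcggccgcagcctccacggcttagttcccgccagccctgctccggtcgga
Cdc20, chr5:137255750-137256049, minus strand: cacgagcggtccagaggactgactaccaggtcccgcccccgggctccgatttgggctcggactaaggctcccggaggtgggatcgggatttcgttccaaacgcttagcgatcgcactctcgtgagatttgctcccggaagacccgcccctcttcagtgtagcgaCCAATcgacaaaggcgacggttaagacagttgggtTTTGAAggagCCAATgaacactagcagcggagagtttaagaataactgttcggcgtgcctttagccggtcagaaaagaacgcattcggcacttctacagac

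In Kif23 the letters ATTGG begin at base -88 and TTTGAA at base -79, counted from the start of the gene. Cenpf has 3 CCAAT sites, at -131, -95 and -70, and Kif11 has 1, at -61, with no TTTGAA in the window. Searched on both strands, CCAAT was found in 21 of the 28 windows (75%) and in 37.5% of all 33469 promoter windows of the same length. TTTGAA was found in 11 of 28 (39.3%) against 18.3% of all windows. An E2F-like site, written as TTTCCCGC, TTTCGCGC, TTTGCCGC or TTTGGCGC, was found in 8 of 28 (28.6%) against 2.14% of all windows, and the 8 were Cdk1, Cdt1, Mcm2, Mcm3, Mcm5, Mcm6, Mcm7 and Tyms. Sites of different motifs overlapped 2 times in the windows of the members, in none of the windows printed. A match is a run of letters and says nothing of binding in these samples.

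Between the days, all 35 genes had higher mean signals at day 28 than at day 7, at Ctrl sites and at Li+ sites alike, by small amounts. With both sites of a rat averaged, so that each rat counted once, the median difference of the 35 was 0.23 on the log2 scale (a fold of 1.17), from 0.09 for E2f1 to 0.35 for Cdc6. The median over all probe sets was 0.02. Of the 35, 18 had an unadjusted p from limma under 0.05 with a higher signal at day 28, and 0 with a lower one, beside 9.24% and 7.87% of all probe sets. At an adjusted p under 0.05, which 0.965% of all probe sets passed, the count was 0, and the smallest adjusted p of a member was 0.0909, for Top2a. None of these genes can therefore be called changed. The smallest exact permutation p was 0.00649, also for Top2a, where 6 rats against 6 allow 0.00216 at the least. In 21 of the 35 genes, the averages of all 6 rats of day 28 lay above the median of day 7, but in 0 of them did the rats of both days separate completely. The shares of all probe sets that did so were not counted, so both counts only describe the list.

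**Figure D1:**
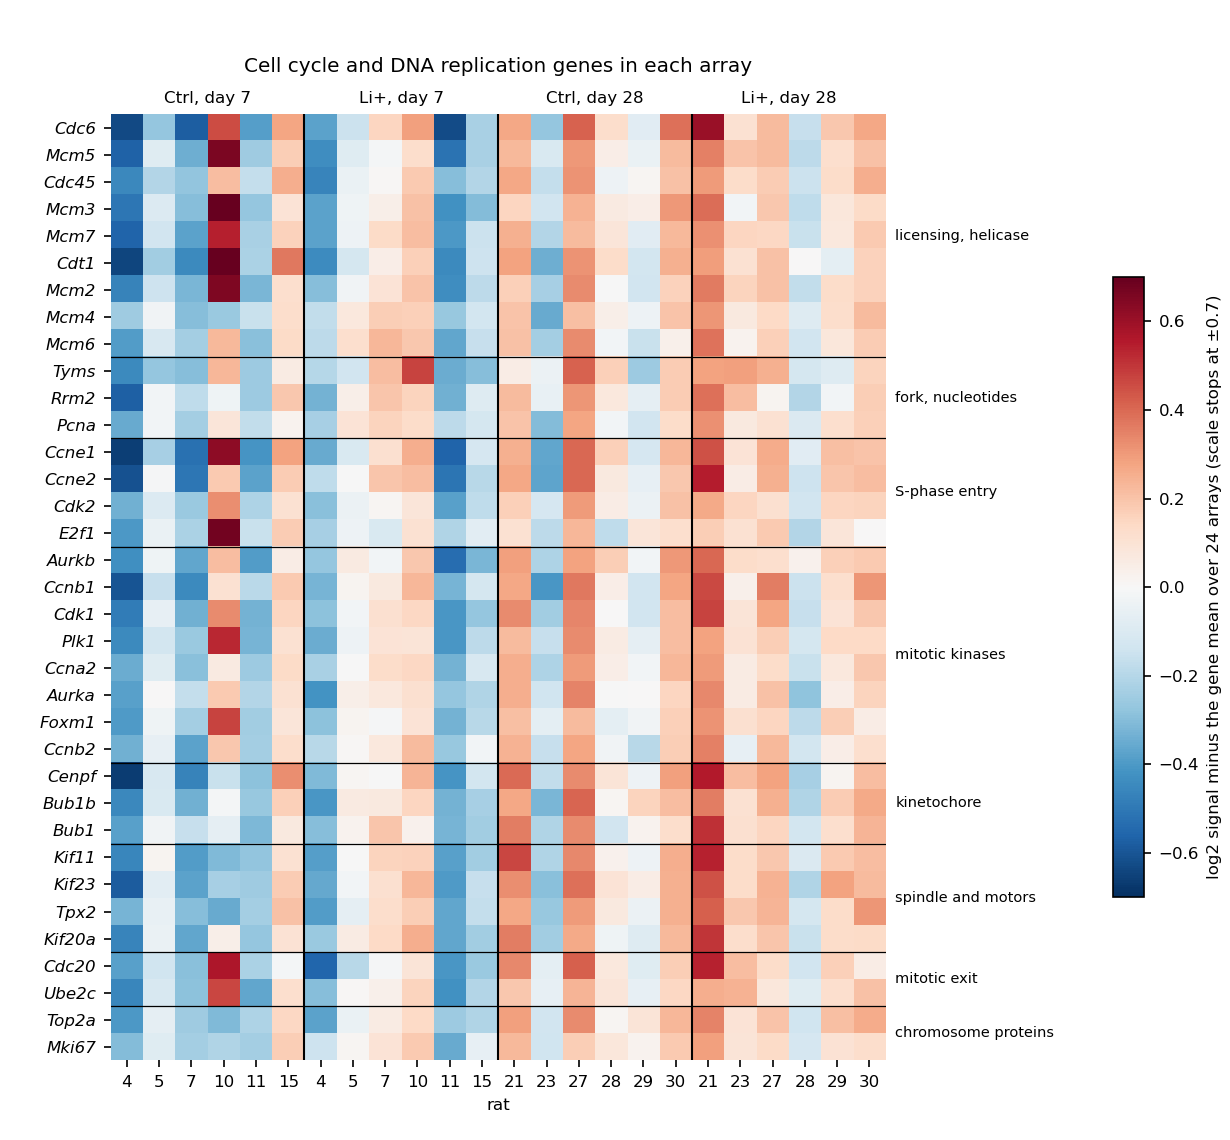
Each of the 35 genes (lines, grouped by role) in each of 24 arrays (columns, by implant, day and rat), as log2 signal minus the gene's mean over all arrays, with red for higher. Many columns take 1 colour, such as Ctrl rat 4 at day 7 and Li+ rat 21 at day 28, others near the mean are mixed, such as Li+ rat 5 with 15 of 35 genes above it, and Ctrl rat 10 has the widest spread, with Cdt1 at 0.92 and Tpx2 at -0.35.

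At Ctrl sites alone, 9 of the 35 had an unadjusted p from limma under 0.05 and were higher at day 28 and 0 were lower, beside 5.51% and 5.85% of all probe sets. At Li+ sites these counts were 20 and 0, beside 8.72% and 7.38%. At an adjusted p under 0.05, which 0.0959% of probe sets passed at Ctrl sites and 0.279% at Li+ sites, both counts were 0, with smallest adjusted p-values of 0.270 and 0.159. The median difference was 0.22 at Ctrl sites (0.03 to 0.38) and 0.26 at Li+ sites (0.12 to 0.38). These counts moved with single animals. Leaving out 1 rat at a time gave 4 to 22 higher at Ctrl sites, beside 4.09% to 7.58% of all probe sets, with most without rat 10. At Li+ sites it gave 6 to 29, beside 6.27% to 10.3%, with most without rat 28. In the rat averages it gave 8 to 31, beside 7.06% to 11.9%, with most without rat 10. The counts alone do not compare the implants. Tested as an interaction, the difference between both time courses had a median of 0.03, an unadjusted p under 0.05 in 0 of 35 genes (3.62% of all probe sets) and an adjusted p under 0.05 in 0 (0% of all probe sets), and the 95% intervals of single genes ran from -0.45 to 0.56.

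The 9 measured genes of origin licensing and of the replicative helicase load MCM rings onto origins and open the helix. In the rat averages all 9 were higher at day 28 (0.14 to 0.35), 3 of them at an unadjusted p from limma under 0.05, beside 9.24% of all probe sets. The counts of the roles that follow are read against the same share. Cdc6, which loads the MCM ring, ran from 9.34 to 10.43 (median 9.64) at Ctrl sites of day 7 and from 9.70 to 10.38 (median 10.17) at day 28. At Li+ sites it ran from 9.34 to 10.26 (median 9.78) and then from 9.81 to 10.57 (median 10.17). The lowest arrays of Cdc6 were those of day 7 and the days overlapped over most of their range, so that the difference of 0.35 ± 0.15 (SE, n = 6 rats per day) had an adjusted p of 0.246 from limma and an exact permutation p of 0.0563. Mcm4 and Mcm6, subunits of the ring, stood at 0.17 ± 0.07 and 0.14 ± 0.10. Mcm4 ran from 11.20 to 11.62 at Ctrl sites of day 7 and from 11.15 to 11.71 at day 28, with the lowest array of all in the later group, from rat 23.

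Of the genes that supply nucleotides or act at the replication fork, Pcna, the sliding clamp of the polymerases, Rrm2, a subunit of ribonucleotide reductase, and Tyms, thymidylate synthase, were measured. All 3 were higher at day 28 by 0.14 to 0.21 in the rat averages, and 0 of them at an unadjusted p under 0.05. Tyms had Ctrl signals of 10.22 to 10.90 (median 10.41) at day 7 and of 10.41 to 11.08 (median 10.78) at day 28. Its Li+ signals were 10.32 to 11.14 (median 10.50) and 10.55 to 10.95 (median 10.87). The highest Li+ array of Tyms was that of rat 10 at day 7. Pcna ran from 11.62 to 12.06 at Ctrl sites of day 7 and from 11.67 to 12.25 at day 28.

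Entry into S phase was represented by the E cyclins Ccne1 and Ccne2, their kinase Cdk2 and the transcription factor E2f1. In the rat averages all 4 were higher at day 28, by 0.09 to 0.28, with 2 (Cdk2 and Ccne2) at an unadjusted p under 0.05. Ccne1 spread widely at Ctrl sites of day 7, from 9.70 to 10.98 (median 10.03), and ran from 9.99 to 10.76 (median 10.55) at day 28. At Li+ sites its range was 9.79 to 10.61 (median 10.24) and then 10.28 to 10.80 (median 10.56). The highest of all Ccne1 signals came from the Ctrl array of rat 10 at day 7. At Li+ sites the day difference of Ccne1 was 0.32 ± 0.13 (SE, n = 6; adjusted p = 0.256, limma), and at Ctrl sites 0.25 ± 0.21. Cdk2 stood at 0.21 ± 0.09 in the rat averages and Ccne2 at 0.27 ± 0.12. E2f1 had the smallest day difference of the 35 at Ctrl sites, 0.03 ± 0.16, and turned to as low as -0.06 when rat 4, 7, 11 or 27 was left out.

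Cyclins and kinases of mitosis, with Foxm1, made up 8 genes, all of them higher at day 28 (0.14 to 0.31 in the rat averages), with 2 at an unadjusted p under 0.05. Aurkb, the kinase of the chromosomal passenger complex, had Ctrl signals of 10.22 to 10.86 (median 10.45) at day 7 and of 10.43 to 10.95 (median 10.87) at day 28. Its Li+ signals were 10.12 to 10.84 (median 10.50) and 10.68 to 11.05 (median 10.79). The 6 Li+ arrays of day 28 all lay above the median of day 7, and the rat averages differed by 0.31 ± 0.10 (SE, n = 6 rats per day; adjusted p = 0.154, limma). Ccna2, the cyclin of S phase and early mitosis, stood at 0.20 ± 0.09, and Ccnb1, the cyclin that with Cdk1 drives entry into mitosis, at 0.26 ± 0.12. Ccnb1 was at its lowest, 10.21, in Ctrl rat 4 at day 7 and at its highest, 11.28, in Li+ rat 21 at day 28.

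At the kinetochore, where chromosomes attach to the spindle, Cenpf, Bub1 and Bub1b were measured, and all 3 were higher at day 28 with an unadjusted p under 0.05 (0.25 to 0.33 in the rat averages). Cenpf ran from 9.42 to 10.41 (median 9.87) at Ctrl sites of day 7 and from 9.91 to 10.49 (median 10.27) at day 28. The Li+ range was 9.67 to 10.33 (median 10.02) and then 9.86 to 10.64 (median 10.30). All 6 Ctrl arrays of day 28 were above the median of day 7, yet Ctrl rat 15 of day 7 was above the median of day 28. The Ctrl difference of Cenpf, 0.38 ± 0.15 (SE, n = 6; adjusted p = 0.369, limma), was the largest of the 35 at Ctrl sites. Bub1, a kinase of the spindle checkpoint, stood at 0.25 ± 0.10 in the rat averages.

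The 4 genes of the spindle and its motors all had an unadjusted p under 0.05 in the rat averages, with differences of 0.24 to 0.33. Kif11, the motor that pushes the spindle poles apart, ran from 9.62 to 10.19 (median 9.79) at Ctrl sites of day 7 and from 9.87 to 10.55 (median 10.22) at day 28. At Li+ sites it ran from 9.69 to 10.24 (median 9.96) and then from 9.98 to 10.62 (median 10.27). All 6 arrays of day 28 lay above the median of day 7 for each implant, and the rat averages differed by 0.33 ± 0.10 (SE, n = 6 rats per day; adjusted p = 0.119, limma). Tpx2, which activates the kinase Aurka at the spindle, stood at 0.29 ± 0.09 (adjusted p = 0.114), Kif23, a motor of cytokinesis whose promoter is printed above, at 0.32, and Kif20a at 0.24.

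Both genes of mitotic exit, Cdc20 and Ube2c, work with the anaphase-promoting complex, and both were higher at day 28 at an unadjusted p under 0.05 in the rat averages. Cdc20 ran from 10.89 to 11.83 (median 11.08) at Ctrl sites of day 7 and from 11.18 to 11.68 (median 11.39) at day 28. Its Li+ range was 10.71 to 11.35 (median 11.04) and then 11.13 to 11.80 (median 11.41). The highest Cdc20 signal at Ctrl sites was that of rat 10 at day 7, and all 6 Li+ arrays of day 28 exceeded the median of day 7. The Li+ difference of Cdc20, 0.38 ± 0.12 (SE, n = 6; adjusted p = 0.159, limma; exact permutation p = 0.0152), was the largest of the 35 at Li+ sites.

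Of the chromosome proteins, Top2a, the topoisomerase that untangles sister chromatids, had Ctrl signals of 11.10 to 11.65 (median 11.27) at day 7 and of 11.36 to 11.83 (median 11.66) at day 28. Its Li+ signals were 11.13 to 11.64 (median 11.37) and 11.36 to 11.85 (median 11.70). All 6 Ctrl arrays of day 28 and 5 of the 6 Li+ arrays lay above the median of day 7, and the rat averages differed by 0.30 ± 0.08 (SE, n = 6 rats per day, adjusted p = 0.0909, limma). Mki67, the antigen of the Ki-67 stain, ran from 12.42 to 12.89 at Ctrl sites of day 7 and from 12.58 to 12.94 at day 28, and differed by 0.19 ± 0.07 in the rat averages (adjusted p = 0.176).

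**Figure D2:**
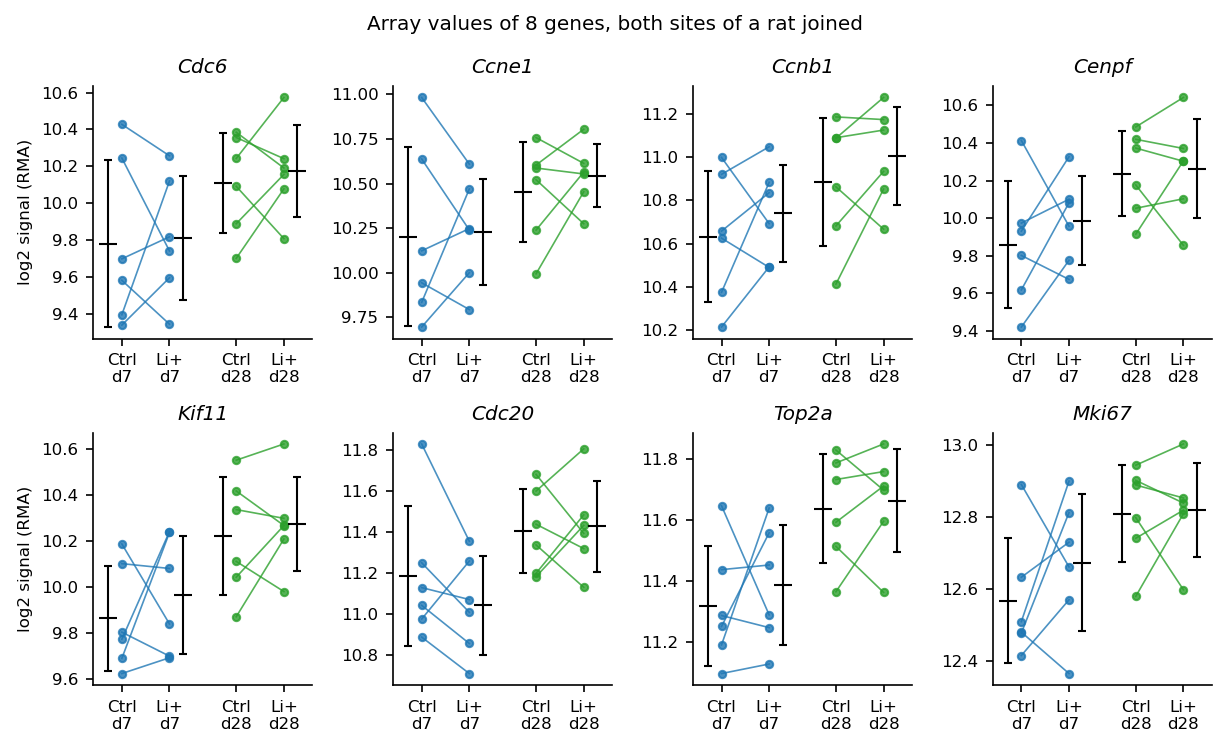
Log2 signals (vertical axis) of 8 genes in the 4 groups of 6 arrays, with lines joining both sites of a rat and black bars for the mean ± SD. Day 28 sits higher than day 7 in each panel with overlapping points, and the highest Ccne1 and Cdc20 values, 10.98 and 11.83, belong to Ctrl rat 10 at day 7.

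A second probe set with a single symbol was present for Ccnb2, Mcm3, Mcm4 and Rrm2. In the rat averages these stood at 0.23, 0.19, 0.17 and 0.15, all of them higher at day 28.

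Other genes of the cell cycle, taken from 10 further lists with 143 measured genes, had a median day difference of 0.21 in the rat averages. Of the 143, 67 were higher and 3 lower at an unadjusted p from limma under 0.05, beside 9.24% and 7.87% of all probe sets, and 0 passed the adjusted threshold, beside 0.965%. The counts of single lists that follow are read against the same shares. Among 16 genes of the kinetochore and the chromosomal passenger complex, 8 had an unadjusted p under 0.05 and 16 of 16 were higher, for example Ndc80, a microtubule-binding subunit, at 0.35 ± 0.09. Among 19 of the spindle and cytokinesis the count was 13, with Ect2, which starts the cleavage furrow, at 0.37 ± 0.11. Of 14 genes of condensin, cohesin and separase it was 12, with Pttg1, securin, at 0.37 ± 0.10. Replicative polymerases, clamp loaders and nucleotide supply had 7 of 23, checkpoint kinases and Cdc25 phosphatases 7 of 12, and origin recognition and firing 5 of 17, with Topbp1 at 0.29 ± 0.08. Of 15 pocket proteins, other E2F factors and MuvB subunits, 7 were higher at an unadjusted p under 0.05, among them Tfdp2, a partner of E2F proteins, at 0.44 ± 0.11 and the repressor E2f8 at 0.33 ± 0.10. The remaining 16 cyclin-dependent subunits and other mitotic genes had 6, with Depdc1 at 0.36 ± 0.13.

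In 2 of the 10 lists no more members were higher than lower, and their difference from the other lists was not tested. The 4 measured D cyclins and G1 kinases had a median of -0.02, with Ccnd1, cyclin D1, at -0.35 ± 0.14 (adjusted p = 0.216, limma) and Cdk6 at 0.12 ± 0.05. The 7 inhibitors of the kinases had a median of -0.07. Cdkn1a, p21, stood at -0.46 ± 0.15 (adjusted p = 0.135) and Cdkn2b, p15, at -0.30 ± 0.09 (adjusted p = 0.108), while Cdkn2c, p18, was at 0.25 ± 0.13.

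Comparison of Li+ with Ctrl within rats addressed whether released Li+ altered these genes. At day 7 the median difference of the 35 was 0.04 on the log2 scale, with 22 of 35 higher at Li+ sites, from -0.14 for Cdc20 to 0.13. By limma 0 of 35 had an unadjusted p under 0.05 and 0 an adjusted p under 0.05, beside 3.63% and 0.00274% of all probe sets. At day 28 the median was 0.04, with 31 of 35 higher, from -0.02 to 0.12 for Ccnb1. By the same thresholds the counts were again 0 and 0, beside 4.32% and 0%. The median over all probe sets was 0.001 at day 7 and 0.004 at day 28. Of the genes higher at day 28, 31 became 14 without rat 23 and 7 without the rats with arrays high in muscle genes. The share of all probe sets higher at Li+ sites is not given here, so the counts of higher genes only describe the list. The 95% intervals of single genes ran from -0.47 to 0.42 at day 7 and from -0.21 to 0.33 at day 28, and the SE of single genes from 0.0763 to 0.156 and from 0.0586 to 0.104. Cdc20 was lower at Li+ sites in 5 of 6 rats at day 7, by 0.14 ± 0.09 on average (exact permutation p = 0.25, the smallest possible with 6 pairs being 0.0313), and Bub1 was higher in 5 of 6 rats at day 28, by 0.09 ± 0.07 (exact permutation p = 0.281).

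**Figure D3:**
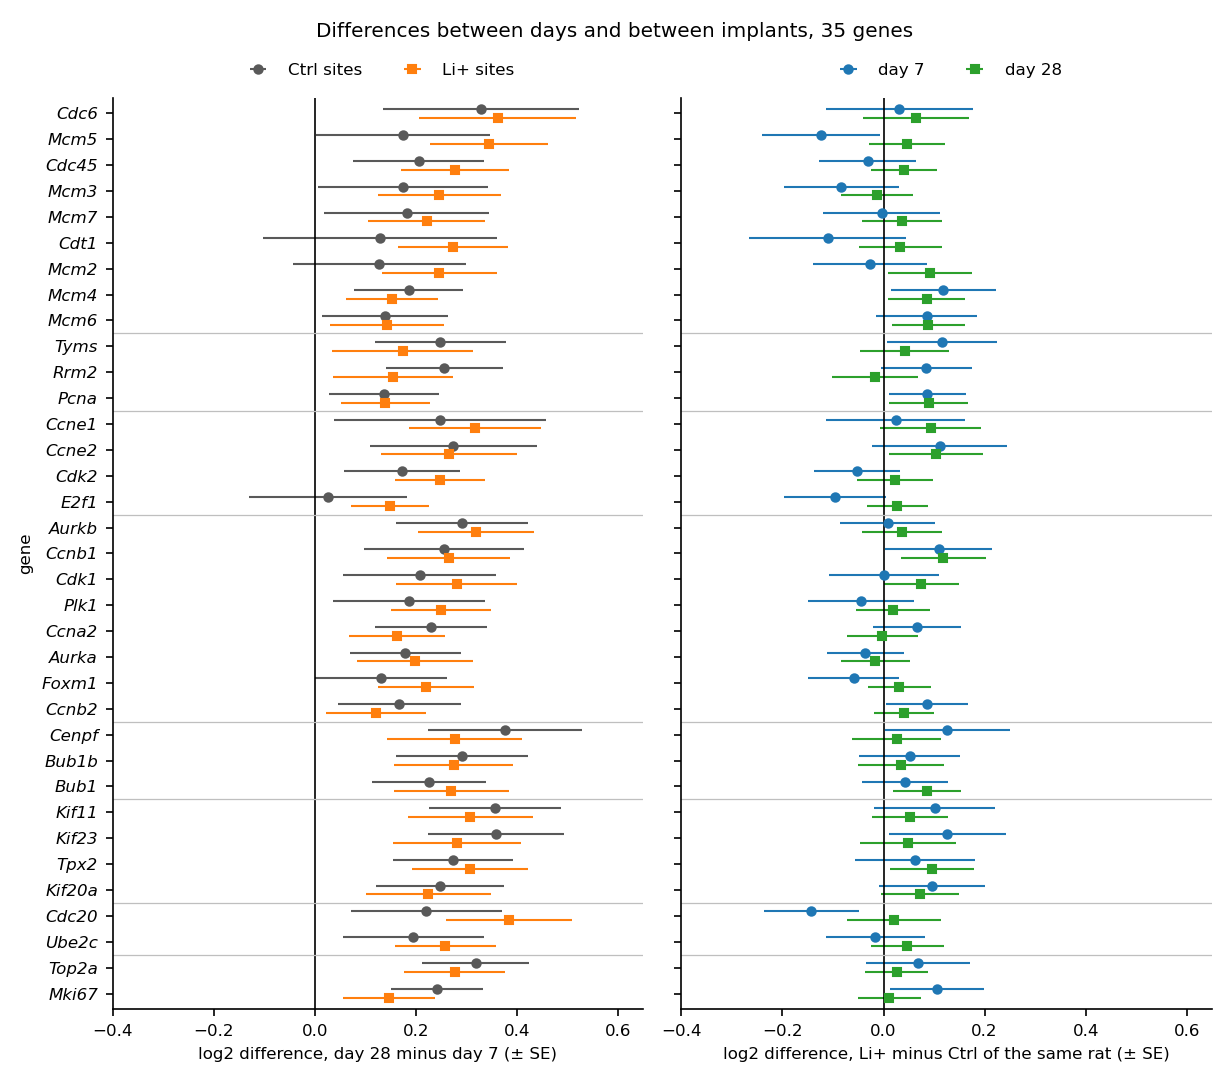
Log2 differences ± SE (horizontal axis) of the 35 genes (vertical axis, grouped by role), on the left day 28 minus day 7 at Ctrl and at Li+ sites and on the right Li+ minus Ctrl within rats at days 7 and 28. All points on the left lie above 0, with medians of 0.22 and 0.26, and those on the right lie between -0.14 and 0.13 on both sides of 0.

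Within a single rat, however, both sites differed in nearly the whole list at once, and the direction changed from rat to rat. At day 7 all 35 genes were higher at the Li+ site in rat 7 (mean difference 0.41), 31 in rat 4 and 32 in rat 5, whereas all 35 were lower there in rats 11 (-0.11) and 15 (-0.33). At day 28 all 35 were higher at the Li+ site in rats 21 (0.13) and 23 (0.32) and 34 in rat 29, whereas all 35 were lower in rat 27 (-0.13) and 34 in rat 28 (-0.18). Rats 10 and 30 were split, with 17 and 13 of 35 higher. Since such differences pointed both ways among the 6 rats of a day, the averages lay close to 0. The share of all probe sets higher at the Li+ site was not counted for single rats, so the counts of single rats only describe the list. Array medians over all probe sets lay between 7.23 and 7.34, and no array offset was removed from these differences. Of the single rats left out in turn, rat 7 alone turned the median of day 7, to -0.02 with 13 of 35 higher, and rat 23 alone that of day 28, to -0.01 with 14 of 35 higher.

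Some marker lists of other cells differed between the sites of a rat in step with the 35 genes, some against them and others in neither way. A list of 11 measured markers of erythroid precursors, dividing cells of the marrow, differed in the same direction as the mean of the 35 genes in 12 of 12 rats, from -0.45 in rat 15 to 0.64 in rat 7. The 12 measured markers of osteoblasts differed in the opposite direction in 12 of 12 rats (-0.40 to 0.41), as did 9 markers of fibroblasts and pericytes (-0.39 to 0.54). Neutrophil precursor markers shared the direction in 11 of 12 rats, megakaryocyte markers in 10, B cell precursor markers in 9, and macrophage markers in 5. Osteoclast markers shared it in 2 and endothelial markers in 1. Markers of T and NK cells, chondrocytes and adipocytes shared it in 7 each, mature B and plasma cell markers in 6 and skeletal muscle markers in 5. Muscle markers differed most in rats 23 (-5.46), 27 (5.20) and 29 (-3.52), each time opposite to the 35 genes. Of the 35 genes, 0 are in a marker list, and all lists were read from the same arrays. The part of cell makeup in the differences between sites was not tested.

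**Figure D4:**
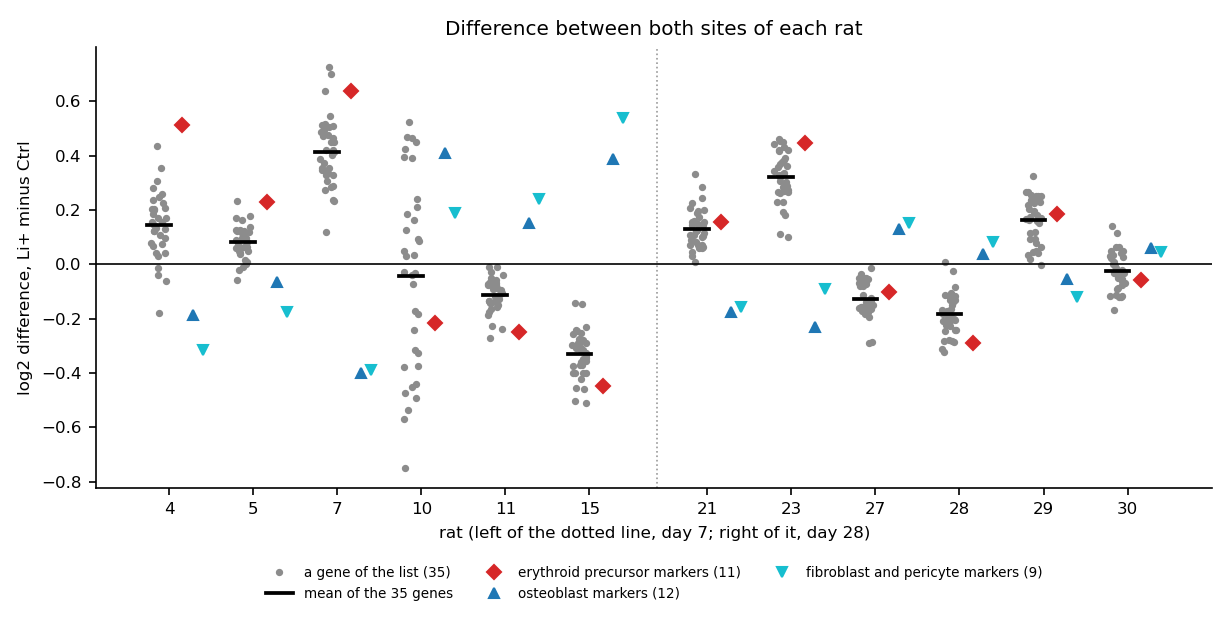
Log2 difference of the Li+ site minus the Ctrl site (vertical axis) in each of 12 rats (horizontal axis), with a grey point for each of the 35 genes, a black line for their mean and symbols for the means of 3 marker lists. Except in rats 10 and 30, nearly all genes of a rat lie on 1 side of 0, with erythroid markers on the same side as the mean in 12 of 12 rats and osteoblast markers on the other side in 12 of 12, and rat 10 spreads from -0.75 to 0.52.

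Over time, some of these marker lists rose with the 35 genes and others fell. In the rat averages, 11 of 11 erythroid precursor markers were higher at day 28 (median 0.34, 5 at an unadjusted p under 0.05, beside 9.24% of all probe sets). So were 10 of 10 B cell precursor markers (0.41), 8 of 8 megakaryocyte markers (0.71) and 11 of 12 neutrophil precursor markers (0.18). The median over all probe sets was 0.02. All 12 osteoblast markers were lower (median -0.31, 7 at an unadjusted p under 0.05, beside 7.87% of all probe sets). So were the 9 of fibroblasts and pericytes (-0.52) and the 5 of osteoclasts (-0.47). On single arrays, relative to its mean over all 24, the erythroid list ran from -0.68 to 0.47 at Ctrl sites of day 7 and from -0.23 to 0.37 at day 28, and from -0.82 to 0.26 and then -0.13 to 0.46 at Li+ sites. The osteoblast list ran from -0.30 to 0.60 at Ctrl sites of day 7 and from -0.77 to 0.17 at day 28, and from -0.07 to 0.43 and then -0.70 to 0.16 at Li+ sites. On the same scale, the group means of the macrophage list were 0.10 and then -0.13 at Ctrl sites, and 0.10 and then -0.06 at Li+ sites. In that order they were 0.09, -0.10, 0.11 and -0.09 for endothelial markers and 0.12, -0.09, 0.05 and -0.08 for chondrocyte markers. For mature B and plasma cell markers they were -0.05, 0.04, -0.07 and 0.07, and for T and NK cell markers -0.02, 0.05, -0.03 and -0.001. Adipocyte markers stood at 0.01, -0.06, 0.11 and -0.06, and the medians of muscle markers at -0.74, -0.61, -0.74 and -0.60. Of the chondrocyte markers, Acan was lower and Col2a1 higher at day 28. On a log2 array scale no marker is at 0. The part of these cells in the day difference of the 35 genes was not tested.

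**Figure D5:**
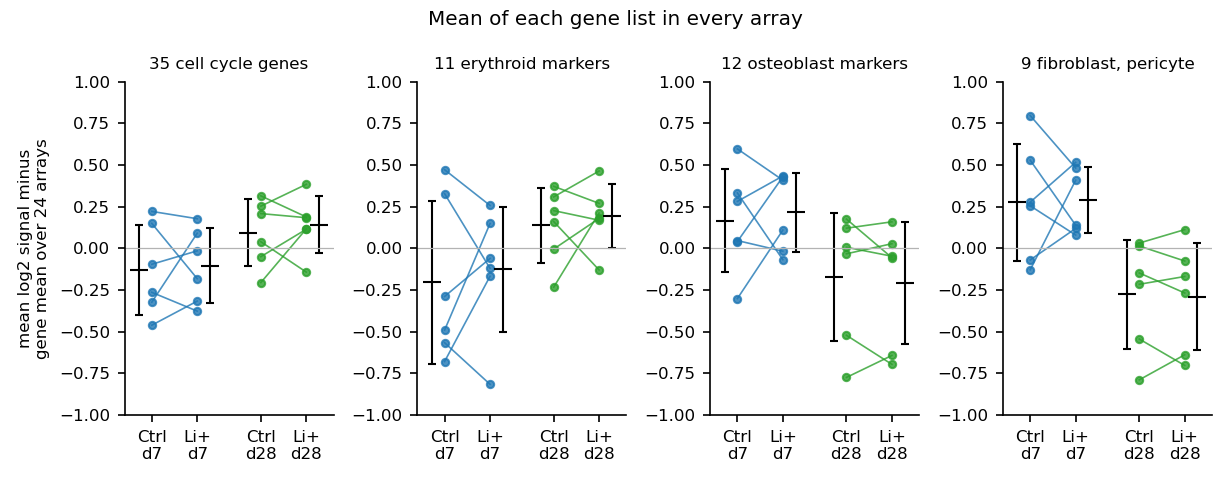
Mean log2 signal relative to each gene's mean over 24 arrays (vertical axis) for the 35 genes and for 3 marker lists in the 4 groups, with lines joining both sites of a rat and black bars for the mean ± SD. The 35 genes run from -0.46 to 0.22 at Ctrl sites of day 7 and from -0.21 to 0.31 at day 28, and the osteoblast list goes the other way, with overlap in each panel.

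The 35 genes also ranked the arrays of a group nearly alike. Ctrl rat 4 was the lowest of its group for 32 of 35 genes, Ctrl rat 23 for 30, Li+ rat 11 for 26 and Li+ rat 28 for 34. Li+ rat 10 was the highest of its group for 29, Ctrl rat 27 for 27 and Li+ rat 21 for 33. The genes are therefore not independent of each other, and a count of genes that pass an unadjusted threshold moves as a whole with single arrays. The same ranks were not counted over all probe sets. In tests for a single array standing apart from its group of 6, 0 of 140 were past the threshold.

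The Ctrl array of rat 10 did not share this pattern. On that array, from day 7, the SD over the 35 genes, each relative to its mean, was 0.340, against 0.0593 to 0.111 on the other 23. There 25 of the 35 genes stood above their mean, with Cdt1 at 0.92, Mcm3 at 0.70, E2f1 at 0.68, Mcm5 at 0.66 and Mcm2 at 0.65. The other 10 stood below it, with Tpx2 at -0.35, Top2a at -0.31, Kif11 at -0.31 and Mcm4 at -0.26. The spread was not confined to these genes, since over all named genes this array had the third widest SD of 24, 0.301. Without rat 10, the Ctrl day difference of Cdt1, the licensing factor that loads MCM with Cdc6, was 0.32 instead of 0.13, and the Ctrl count at an unadjusted p under 0.05 was 22 of 35, beside 7.32% of all probe sets.

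Skeletal muscle markers stood far above their mean in the Ctrl arrays of rats 23 (4.92) and 29 and in the Li+ array of rat 27 (4.51). Without these 3 arrays the Ctrl count was 20 and the Li+ count 12, beside 6.80% and 7.32% of all probe sets, with medians of 0.32 and 0.25. The rat averages and the comparison of implants need both sites, so rats 23, 27 and 29 were left out whole there. Only rats 21, 28 and 30 then remained at day 28. The count in rat averages was 12, beside 5.76% of all probe sets, with a median of 0.26. The median of Li+ against Ctrl at day 28 was -0.03.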

How the data were processed

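Gene expression was measured in 24 samples of rat peri-implant bone, 6 per implant and day, with groups and rats taken from the labels. The deposited table holds 1 log2 signal for each probe set and array, made by the authors with RMA (background correction, quantile normalization and summary) in version 1.1.2 of the Affymetrix console software. No raw array and no further normalization was used, array medians lay between 7.23 and 7.34, and the number of arrays limits the precision. Batches were not tested, since no source names a date or batch of hybridization. The labels name an RNeasy Micro kit and the Methods a Mini kit.

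The 190 control probe sets were left out and 36495 were tested without a filter on signal. Of these, 18511 carry 1 symbol, 575 several and 17409 none, and 18394 were found in GRCr8 by Entrez ID, with 0 symbols changed. The members and all gene lists were chosen with earlier results of these data known, so the day difference of the list is not independent evidence of its direction.

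The tests were moderated linear fits, lmFit and eBayes of limma 3.58.1 under R 4.3.3: Li+ against Ctrl with the rat as a block, day 28 against day 7 without one, the same on the average of both sites of a rat, and the difference between time courses as an interaction. The Benjamini-Hochberg adjustment covered every probe set tested. Exact permutation tests were two-sided and flipped the sign within rats or regrouped rats. The comparisons share their arrays. The procedure was tested on simulated data. The titles give the same rat for both arrays of a pair, and after removal of the group means these correlated across probe sets with a median r of 0.28 (0.0675 to 0.57 over 12 rats), against -0.03 for different rats. A score of a list is the mean of its genes, each minus its mean over all arrays. Array values were named for up to 3 genes per role, those with the largest day difference, the highest mean signal and the smallest p between implants, and up to 3 genes of each further list, those with the largest day difference. Figures were drawn with python 3.11.15 and matplotlib 3.10.9. Alternatives were the fit without the rat block, the methods' t-test, centring, filters, a random block, and leaving out arrays.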

Additional observations from a re-analysis of the deposited data

How the results depend on the processing

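All 35 genes kept a higher mean at day 28 at Li+ sites and in the rat averages under every alternative run, and at Ctrl sites with the exception of E2f1 in 4 of them. Counts at an unadjusted p under 0.05 did move. At Ctrl sites, 9 became 5 with the methods' t-test (5.26% of all probe sets), 5 with arrays centred on their median (3.95%), 20 without the 3 arrays high in muscle genes (6.80%) and 34 without the Ctrl arrays of rats 10 and 23 (10.4%), and 4 to 22, beside 4.09% to 7.58%, when single rats were left out (4 without rats 4, 7, 21, 27 or 30, 5 without rat 11, 15 without rat 15 or 23 and 22 without rat 10). At Li+ sites, 20 became 13 with the methods' t-test (8.68% of all probe sets), 12 with the rat as a random block over all arrays (6.85%), 12 without the arrays high in muscle genes (7.32%), and 6 to 29, beside 6.27% to 10.3%, when single rats were left out (6 without rat 4 or 11, 7 without rat 21, 11 without rat 15, 12 without rat 27 and 13 without rat 30). In the rat averages, 18 became 33 without both arrays of rats 10 and 23 (13.0% of all probe sets). With single rats left out, the count in the rat averages was 8 to 31, beside 7.06% to 11.9%. It was 8 without rats 4, 11 or 21, 9 without rat 27, 10 without rat 30, 11 without rat 7 and 31 without rat 10. There the count at an adjusted p went from 0 to 1 with the random block (Top2a), without rat 10 (Cdc20) and without rat 28 (Top2a), so that leaving out single rats gave 0 to 1. Of all 36495 probe sets, 1773, 840 and 1013 passed in these settings, so that 1 of 35 is close to or below the share of all. The cause of these moves was not tested.

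Between Li+ and Ctrl at day 7 the counts of higher and of lower genes were each 0 to 1 when single rats were left out. Without rat 15 there was 1 higher, beside 2.86% of all probe sets, and 1 of 35 is near that share. Without rat 7 there was 1 lower, and the share of all probe sets lower in that setting was not counted. Without the replicate block, which pairs both sites of a rat, the counts between the implants and for the difference between time courses were 0 as well. Counted over combinations of a gene and a setting, the sign turned in 40 of 560 at day 7, 75 of 560 at day 28 and 101 of 770 for the difference between time courses. With 6 arrays per group, differences between the implants of the size seen here lie near the errors of single genes. Day differences in the rat averages were larger against their errors, with a median of 0.23 and SEs of 0.0708 to 0.154. Even so, 0 of the 35 had an adjusted p under 0.05 from limma in the main fit. The number of arrays and the spread between rats limit what can be called.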
